A study of Mus musculus with 12 samples.

Results

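*Asns*, *Aldh18a1*, *Pycr1*, *Got1*, *Got2*, *Gpt*, *Gpt2*, *Bcat1* and *Bcat2* encode enzymes that make asparagine and proline or move amino groups between amino acids and keto acids. These 9 genes were listed by symbol, with earlier results of these data known. All 9 were found among the 17007 rows of a table of mouse liver RNA. The table covers 12 mice in 4 groups of 3. Normal livers came from wild-type C57BL/6 mice for which no treatment is labelled. The 9 tumor libraries all came from hepatocellular carcinomas (HCCs) of genotype RictorKOTsc2KO. To make them, *Rictor* fl/fl *Tsc2* fl/fl mice received plasmids for the oncogenes c-MYC and MCL1 and for Cre recombinase under a CMV promoter. The plasmids went into the tail vein by hydrodynamic injection, which delivers DNA to hepatocytes, so the other cells of the liver keep both floxed genes. The tumor mice were gavaged with vehicle, MLN0128 at 1 mg/kg per day or everolimus at 1 mg/kg per day, on 6 days a week for 3 weeks from day 6 after injection, and were sacrificed at 3.7 weeks. The results text of the study gives 3 days of treatment for its RNA sequencing, and the groups are used here with the labelled 3 weeks. MLN0128 blocks the catalytic site of mTOR, and everolimus is a rapamycin analog that inhibits mTORC1 in part.

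Asparagine synthetase, encoded by *Asns*, converts aspartate to asparagine with glutamine as the nitrogen donor. Proline is made from glutamate by the product of *Aldh18a1*, which forms pyrroline-5-carboxylate, and by *Pycr1*, a mitochondrial reductase that turns this into proline. The 3 transaminase pairs each have a cytosolic and a mitochondrial enzyme: *Got1* and *Got2* for aspartate, *Gpt* and *Gpt2* for alanine, *Bcat1* and *Bcat2* for leucine, isoleucine and valine. In the adult liver, aspartate and alanine transaminases are abundant in hepatocytes and serve gluconeogenesis and urea synthesis, whereas the liver is known for little branched-chain transaminase activity. ATF4, a transcription factor whose translation is raised by amino acid shortage and by mTORC1, is known to act on *Asns* and on genes of proline and serine synthesis, and MYC binds the E-box sequence.

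The FPKM (fragments per kilobase of exon, scaled to the library by the authors) were tested with limma's moderated test on log2(FPKM + 1), with all 12 libraries in 1 model. Reads recovered from the values numbered 17200826 to 25213262 per library. The filter of at least 0.5 FPKM in at least 3 libraries left 14393 genes, 8 of the 9 enzyme genes among them, and a gene was called at a Benjamini-Hochberg adjusted p under 0.05. *Bcat1* did not pass the filter and is given apart. The authors' scaling of the libraries, beyond their totals, had factors of 0.585 to 0.595 in normal liver, and in tumors it ran over 1.12 to 1.14 (vehicle), 1.15 to 1.37 (MLN0128) and 1.10 to 1.20 (everolimus). Rescaling each library to the same sum (TPM) moved the median of all tested genes, as the log2 change of vehicle against normal liver, from 0.06 to 1, and scaling by plain library totals moved it to 0.62. Over the same comparison *Tsc2* differed by -0.91 and *Rictor* by -0.44 on the log2 scale, with TPM values of 0.00 and 0.36. Both are whole-gene values that do not single out the deleted exons. MLN0128 replicates 1 and 2 alone held *Xist* RNA with no RNA of 4 Y-linked genes, so comparisons with MLN0128 also compared X and Y content.

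Promoter sequence is shown for the members whose window held a motif that these pathways are known for, so that it can be read beside their levels. RefSeq windows on GRCm38.p6, from 250 bases before to 50 after a start, were at hand for 8 of the 9 genes. Searching both strands, TGATGNAA, the core of the element that ATF4 binds with C/EBP partners, was found in windows of 3 genes and in 3.97% of 32817 windows of all genes. The E-box CACGTG was found in 1 gene and in 7.15% of all windows. The sequences below run 5′ to 3′ on the minus strand, which all 4 genes use, and the capitals mark the match.
Asns, chr6:7693214-7693243: tcccagccacaTGATGAAActtcccgcacg
Pycr1, chr11:120643804-120643891: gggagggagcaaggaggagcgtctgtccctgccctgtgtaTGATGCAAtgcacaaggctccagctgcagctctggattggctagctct
Got1, chr19:43524660-43524747: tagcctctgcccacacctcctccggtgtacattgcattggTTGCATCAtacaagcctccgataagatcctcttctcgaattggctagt
Aldh18a1, chr19:40588477-40588562: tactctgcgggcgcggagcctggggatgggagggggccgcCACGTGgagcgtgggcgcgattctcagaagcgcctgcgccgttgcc

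The *Asns* match lies 23 to 16 bases upstream of the RefSeq start, inside the first exon that GENCODE M21 gives the gene. The *Pycr1* match lies 103 to 96 bases upstream, and the *Got1* match, which reads TGATGCAA on the opposite strand, 102 to 95 bases upstream. The *Aldh18a1* E-box lies 59 to 54 bases upstream of its start. Neither motif was found in the windows of *Got2*, *Gpt2*, *Bcat1* and *Bcat2*. A match describes these letters and is not a measured binding site.

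Against normal liver, the vehicle-treated tumors held far more RNA of the asparagine and proline enzymes, more *Bcat2*, and, as the authors scaled the libraries, less of the cytosolic aspartate and alanine transaminases. Of the 8 tested enzyme genes, 4 rose and 2 fell, beside 69.0% of all tested genes called (36.0% higher and 33.0% lower). The split of the 8 depended on the scaling between libraries: 6 rose and 0 fell with TPM and with plain library totals, and 5 rose and 0 fell with quantile normalization, whereas median-of-ratios scaling kept 4 and 2. Over all genes TPM, plain totals and quantile normalization gave 9650 higher and 1689 lower, 8767 and 2172, and 4959 and 4625, in place of 5176 and 4750. The median log2 change of the 8 was 0.34, against 0.06 over all genes. The 3 libraries of each group did not overlap for 7 of the 8 genes, beside 39.0% of all genes apart and higher and 35.1% apart and lower. When limma's treat was asked for changes beyond 1.5-fold, 4 of the 8 passed (*Asns*, *Aldh18a1*, *Pycr1* and *Gpt*), beside 32.7% of all genes. In bulk tissue, fewer cells of a type and less RNA per cell cannot be told apart. The summed FPKM of 5 hepatocyte markers was 79847 to 98749 in normal liver and 3456 to 5573 in the vehicle group. The summed macrophage markers were 101 to 119 and 37.5 to 59.8 FPKM. *Clec4f*, a receptor of liver-resident macrophages, carried most of the normal liver sum, with means of 81.0 and 7.18 FPKM, whereas *Cd68* of the same list was higher in the tumors at 29.9 than in normal liver at 5.18 FPKM (log2 change 2.31, adjusted p = 1.56e-05). The summed cholangiocyte markers overlapped at 40.2 to 43.6 and 36.8 to 92.5 FPKM. The lowest vehicle sum of this list lay below all 3 normal livers, so the sums give no common direction. None of the 5 genes of these lists was at 0 in every library of any group. Their part in these differences was not tested.

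*Asns* (chromosome 6, 7675169 to 7693254) had 18.0, 33.2 and 6.17 FPKM in the 3 normal livers and 102, 107 and 94.9 FPKM in the 3 vehicle-treated tumors. Every tumor lay above every normal liver, and normal liver replicate 2 was the highest of its group. The log2 change was 2.61 (SE 0.411, adjusted p = 0.000140), a 5.30-fold higher mean FPKM. The fold was 8.38 without normal liver replicate 2 and 3.96 without normal liver replicate 3. *Aldh18a1* (chromosome 19, 40550257 to 40588463) had 0.342, 1.07 and 0.165 FPKM in normal livers and 32.5, 47.2 and 36.1 FPKM with vehicle, so a gene near the detection limit became moderately abundant. Its log2 change of 4.73 (SE 0.217, adjusted p = 1.34e-08) was the largest of the 8, and its mean FPKM was 73.4-fold higher. The 3 normal livers held 7 to 48 recovered reads of it. The fold was 152 without normal liver replicate 2 and 54.7 without normal liver replicate 3. *Pycr1* (chromosome 11, 120635712 to 120643769) had 0.330, 0.369 and 0.195 FPKM in normal livers and 3.25, 4.58 and 3.17 FPKM with vehicle. It rose by a log2 change of 1.84 (SE 0.134, adjusted p = 3.67e-07), and its mean FPKM was 12.3-fold higher. The rises of *Asns*, *Aldh18a1*, *Pycr1* and *Bcat2* had the same sign under each scaling tried.

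**Figure D1:**
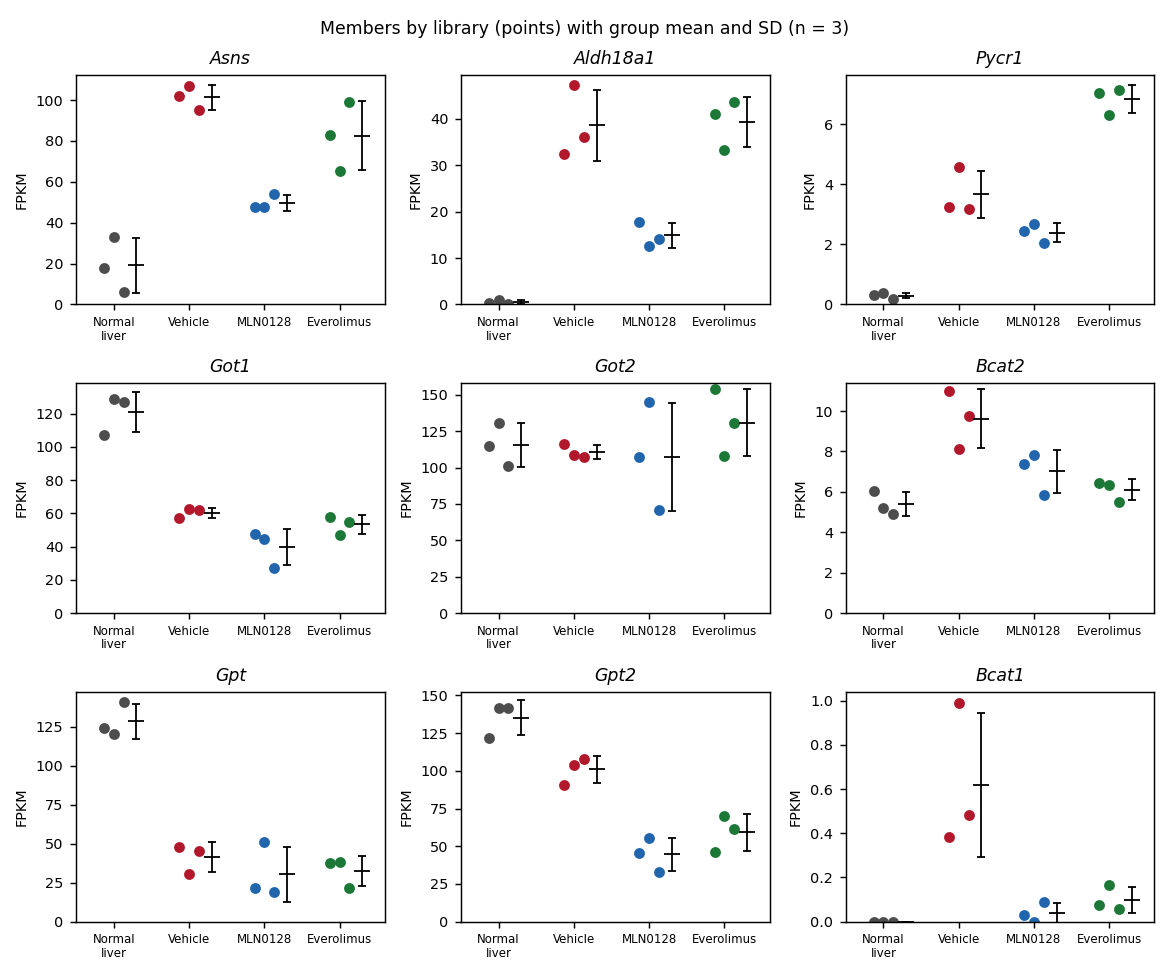
FPKM of the 9 enzyme genes (vertical axes, linear, from 0) by group, with 1 point per library and the group mean with its SD beside the points (n = 3). *Asns*, *Aldh18a1* and *Pycr1* are low in normal liver and high with vehicle, *Pycr1* is highest with everolimus at 6.30 to 7.15 FPKM, and *Got2* overlaps between all 4 groups.

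The aspartate transaminases parted. Cytosolic *Got1* (chromosome 19, 43499752 to 43524605) had 107, 129 and 127 FPKM in normal livers and 57.0, 62.4 and 61.9 FPKM with vehicle, and it fell by 0.99 on the log2 scale (SE 0.186, adjusted p = 0.000539), a value that was -0.14 with quantile normalization (adjusted p = 0.523) and -0.06 with plain library totals (adjusted p = 0.729), neither called, and turned to 0.20 with TPM scaling (adjusted p = 0.257). Mitochondrial *Got2* (chromosome 8, 95864134 to 95888547) was at 115, 131 and 101 FPKM and at 116, 109 and 107 FPKM, overlapping, with a log2 change of -0.06 (95% interval -0.55 to 0.44, adjusted p = 0.837) that turned to 1.14 with TPM scaling, 0.87 with plain totals and 0.80 with quantile normalization, each past the threshold (adjusted p = 4.17e-05, 0.00110 and 0.00131). The ratio of the pair within a library does not depend on any scaling between libraries. The geometric mean of *Got1* over *Got2* FPKM was 1.05 in normal liver and 0.546 with vehicle, with the groups apart. The exact two-sided permutation test gave p = 0.1, the smallest that 3 against 3 libraries allow, and an adjusted p of 0.18 over the 9 ratio comparisons made.

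The alanine transaminases showed the same order. Cytosolic *Gpt* (chromosome 15, 76695716 to 76699686) had 124, 120 and 141 FPKM in normal livers and 48.0, 30.3 and 45.5 FPKM with vehicle. It fell by 1.64 on the log2 scale (SE 0.334, adjusted p = 0.000969), and it stayed below 0 under each scaling. It was no longer called at -0.46 with TPM (adjusted p = 0.202), at -0.80 with quantile normalization (adjusted p = 0.0612) or at -0.71 with plain totals (adjusted p = 0.0554). Mitochondrial *Gpt2* (chromosome 8, 85492576 to 85527560) was at 122, 142 and 142 FPKM and at 90.7, 104 and 108 FPKM, a log2 change of -0.42 (95% interval -0.85 to 0.01, adjusted p = 0.0734) that turned to 0.77 with TPM (adjusted p = 0.00464), 0.51 with plain totals (adjusted p = 0.0244) and 0.47 with quantile normalization (adjusted p = 0.0597). It passed the threshold without MLN0128 replicate 2 (adjusted p = 0.0490) or replicate 3 (adjusted p = 0.0374), which enter only through the shared spread. The ratio of *Gpt* to *Gpt2* was 0.948 in normal liver and 0.402 with vehicle, with the groups apart (exact permutation p = 0.1, adjusted p = 0.18).

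The branched-chain transaminases were both higher in the tumors. Mitochondrial *Bcat2* (chromosome 7, 45570153 to 45589711) had 6.04, 5.19 and 4.91 FPKM in normal livers and 11, 8.12 and 9.76 FPKM with vehicle, a log2 change of 0.73 (SE 0.138, adjusted p = 0.000537). Of its exon bases, 15.9% overlap the antisense gene 0610005C13Rik, and 3.62% of those of *Bcat1* overlap Gm26666 and 9.0% of those of *Got2* overlap Gm45760, all on the opposite strand. The strandedness of the libraries is not given in the sources used here, so reads of such partners cannot be told apart. Cytosolic *Bcat1* (chromosome 6, 144993835 to 145076184) was listed at 0 in all 3 normal livers and at 0.385, 0.992 and 0.483 FPKM with vehicle, which were 77, 195 and 105 recovered reads. Against a floor of 3 reads per library, at most 0.0308 FPKM in normal liver, the vehicle mean was at least 20.1-fold higher, and this bound covers counting error only. The exact permutation test gave p = 0.1, the smallest possible here. With no filter, limma on log2(FPKM + 1) over 17003 genes gave *Bcat1* a difference of 0.68 with an adjusted p of 0.000222.

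**Figure D2:**
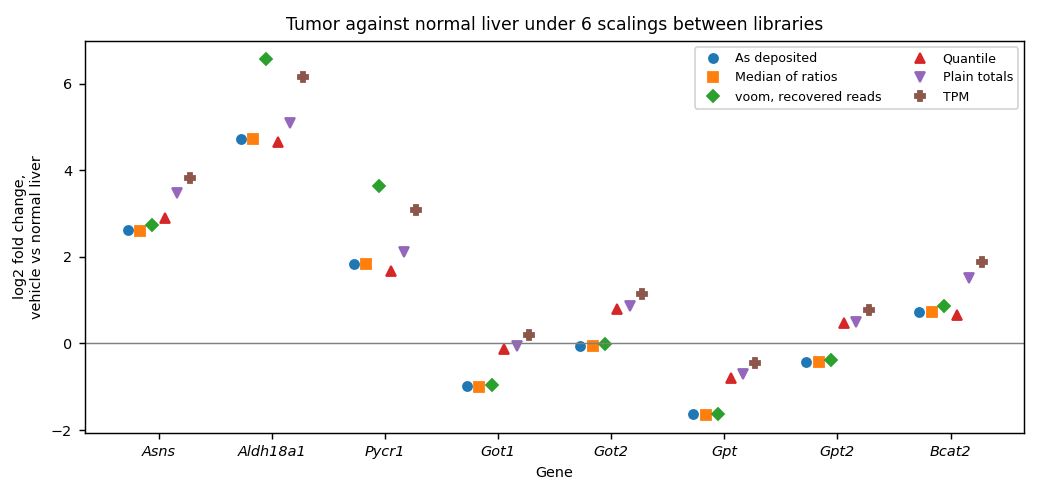
Log2 change of vehicle-treated tumors against normal liver (vertical axis) for the 8 tested enzyme genes (horizontal axis) under 6 scalings between libraries, 1 symbol each. *Asns*, *Aldh18a1*, *Pycr1* and *Bcat2* lie above 0 and *Gpt* below 0 under all 6, whereas *Got1*, at -0.99 as deposited and 0.20 with TPM, crosses 0, as do *Got2* and *Gpt2*.

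Other genes of the same pathways moved mostly the other way in this comparison. Of 47 such genes in 5 lists, 7 rose and 34 fell, beside 36.0% of all tested genes higher and 33.0% lower. Their median log2 change was -1.29 against 0.06 over all genes. With TPM scaling the counts were 15 and 21 and the median was -0.22. Among 21 genes of branched-chain amino acid breakdown, 18 fell and 1 rose. The riser was *Bckdk*, the kinase that inactivates the branched-chain keto acid dehydrogenase, at 3.81 to 4.91 FPKM in normal liver and 10.5 to 12.4 with vehicle. Among 7 other transaminases, 5 fell and 1 rose, with *Agxt* (alanine-glyoxylate transaminase) going from 236, 281 and 241 FPKM to 3.00, 1.57 and 2.43, a log2 change of -6.27. *Aadat* differed by -5.30 and *Agxt2* by -3.71 on the same scale. Among 8 genes of asparagine, glutamine and glutamate, 3 rose and 5 fell. Among 5 partners of *Got1* and *Got2* in the malate-aspartate shuttle, 1 rose and 3 fell.

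All 6 reference genes of ATF4 signaling rose between normal liver and vehicle-treated tumors, beside 36.0% of all tested genes higher. Their median log2 change was 2.14. These 6 were chosen with earlier results of these data known, so their counts are no independent evidence. They were led by *Phgdh* at 6.75 and *Psat1* at 6.06, enzymes of serine synthesis. *Psat1* had 0.850, 9.78 and 0.428 FPKM in normal liver and 218, 198 and 195 FPKM with vehicle, and *Phgdh* at 0.298, 4.78 and 0.308 and then 226, 269 and 197 FPKM. Normal liver replicate 2, the highest of its group for *Asns* and *Aldh18a1*, was also the highest for *Psat1*, *Phgdh* and *Trib3*. The call of *Chac1*, the smallest of the 6 at 0.69, was lost without normal liver replicate 3 (adjusted p = 0.0593) or vehicle replicate 1 (adjusted p = 0.0688).

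With MLN0128, both proline enzymes, *Got1*, *Gpt2* and *Bcat2* fell relative to vehicle. That is 5 of the 8 tested genes lower and 0 higher, beside 32.0% of all genes called, 17.1% lower and 14.9% higher. With TPM scaling 2 of the 8 were lower, and all genes gave 3548 higher and 1269 lower in place of 2142 and 2463. With plain totals 4 of the 8 were lower, with 3313 of all genes higher and 1804 lower. Without MLN0128 replicate 1, 3027 genes were called in place of 4605. The median log2 change of the 8 was -0.58, against -0.01 over all genes. Groups did not overlap for 6 of the 8, all lower, beside 23.4% of all genes apart and lower and 22.1% apart and higher. In the treat test none of the 8 passed in this or the other drug comparisons, where 2.13%, 0.604% and 0.0417% of all genes did. At an unadjusted p under 0.05 of the moderated test, the 8 genes gave 6 here beside 42.9% of all genes, 3 with everolimus beside 26.8%, and 3 between the drugs beside 27.0%. The summed hepatocyte markers were 3456 to 5573 FPKM with vehicle and 1662 to 3538 with MLN0128, with *Ttr* and *Apoa1* called lower and *Cyp2e1* called higher. The summed cholangiocyte markers were 36.8 to 92.5 FPKM with vehicle and 10.2 to 28.1 with MLN0128, and the macrophage markers 37.5 to 59.8 and 14.2 to 24.9. Their part in these differences was not tested.

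*Aldh18a1* fell from 32.5, 47.2 and 36.1 FPKM to 17.8, 12.7 and 14.1 FPKM, a log2 change of -1.32 (SE 0.217, adjusted p = 0.00127) and a 2.6-fold lower mean. All MLN0128 tumors lay below all vehicle tumors and far above normal liver. The call was lost when 0.01 in place of 1 was added to the FPKM (adjusted p = 0.0559). *Pycr1* went from 3.25, 4.58 and 3.17 FPKM to 2.45, 2.69 and 2.04 FPKM, also without overlap, a log2 change of -0.45 (SE 0.134, adjusted p = 0.0240). The *Pycr1* call rested on single libraries: leaving out vehicle replicate 2 gave an adjusted p of 0.0851, leaving out MLN0128 replicate 1 gave 0.0583, and leaving out its replicate 3 gave 0.0709. With TPM scaling it was 0.131, and in a fit of the vehicle and MLN0128 libraries alone 0.0758.

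*Asns* was at 102, 107 and 94.9 FPKM with vehicle and at 47.5, 47.5 and 54.0 FPKM with MLN0128, a 2.04-fold lower mean with all MLN0128 tumors below all vehicle tumors. Its log2 change of -1.01 (SE 0.411, adjusted p = 0.0804) did not pass the threshold in the fit of all 12 libraries. The SE there is shared with normal liver, where *Asns* had an SD of 13.6 around a mean of 19.1 FPKM, beside SDs of 6.08 and 3.75 FPKM with vehicle and MLN0128. In a fit of the vehicle and MLN0128 libraries alone the adjusted p was 0.00325. In the fit of all groups it was 0.0234 without normal liver replicate 2 and 0.00537 without normal liver replicate 3. These 3 of 27 alternatives passed the threshold, and the other 24 did not. The change was smaller with TPM scaling (-0.79, adjusted p = 0.165), quantile normalization (-0.73, adjusted p = 0.131) and plain library totals (-0.87, adjusted p = 0.11).

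*Got1* was at 47.3, 44.6 and 27.2 FPKM with MLN0128, below all 3 vehicle values, a log2 change of -0.63 (SE 0.186, adjusted p = 0.0229). Without vehicle replicate 2 its adjusted p was 0.0589, without vehicle replicate 3 it was 0.0674, and with TPM scaling 0.0669. With quantile normalization it was 0.125, and in a fit of the vehicle and MLN0128 libraries alone 0.0658. *Got2* was at 107, 145 and 70.6 FPKM, spread on both sides of the vehicle values, with a log2 change of -0.10 (95% interval -0.60 to 0.40, adjusted p = 0.768) that turned to 0.14 with TPM scaling and 0.28 with quantile normalization. *Got1* over *Got2* was 0.374 with MLN0128 and 0.546 with vehicle, with the groups apart (exact permutation p = 0.1, adjusted p = 0.18).

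*Gpt2* fell from 90.7, 104 and 108 FPKM to 45.6, 55.2 and 33.1 FPKM, a log2 change of -1.18 (SE 0.195, adjusted p = 0.00122) and a 2.26-fold lower mean. Leaving out any 1 library kept this call. *Gpt* was at 21.3, 50.8 and 19.2 FPKM with MLN0128, where replicate 2 overlapped the vehicle tumors and the other two lay below them. Its log2 change was -0.54 (95% interval -1.27 to 0.19, adjusted p = 0.242), and -0.97 without MLN0128 replicate 2 (adjusted p = 0.0174). The ratio of *Gpt* to *Gpt2* was 0.629 with MLN0128, overlapping with vehicle (exact permutation p = 0.2, adjusted p = 0.30).

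*Bcat2* was at 7.38, 7.82 and 5.83 FPKM with MLN0128, below all vehicle values, a log2 change of -0.41 (SE 0.138, adjusted p = 0.0413). This call did not withstand leaving out normal liver replicate 2 (adjusted p = 0.0529), vehicle replicate 1 (0.152) or 3 (0.107), MLN0128 replicate 1 (0.0725) or 3 (0.126), or everolimus replicate 1 (0.0522). It was also lost with TPM scaling (adjusted p = 0.354), plain library totals (0.118) and quantile normalization (0.0620). In a fit of the vehicle and MLN0128 libraries alone its adjusted p was 0.0929. *Bcat1* was at 0.0302, 0 and 0.0897 FPKM, which were 8, 0 and 20 recovered reads, all below the vehicle tumors. Its mean FPKM was 15.5-fold lower, or 41.1-fold lower without MLN0128 replicate 3 and 10.3-fold lower without MLN0128 replicate 2. Limma's voom on recovered reads, with a lower filter and chosen after seeing the data, gave *Bcat1* an adjusted p of 0.00200 over 16284 genes, and limma with no filter gave 0.00209.

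**Figure D3:**
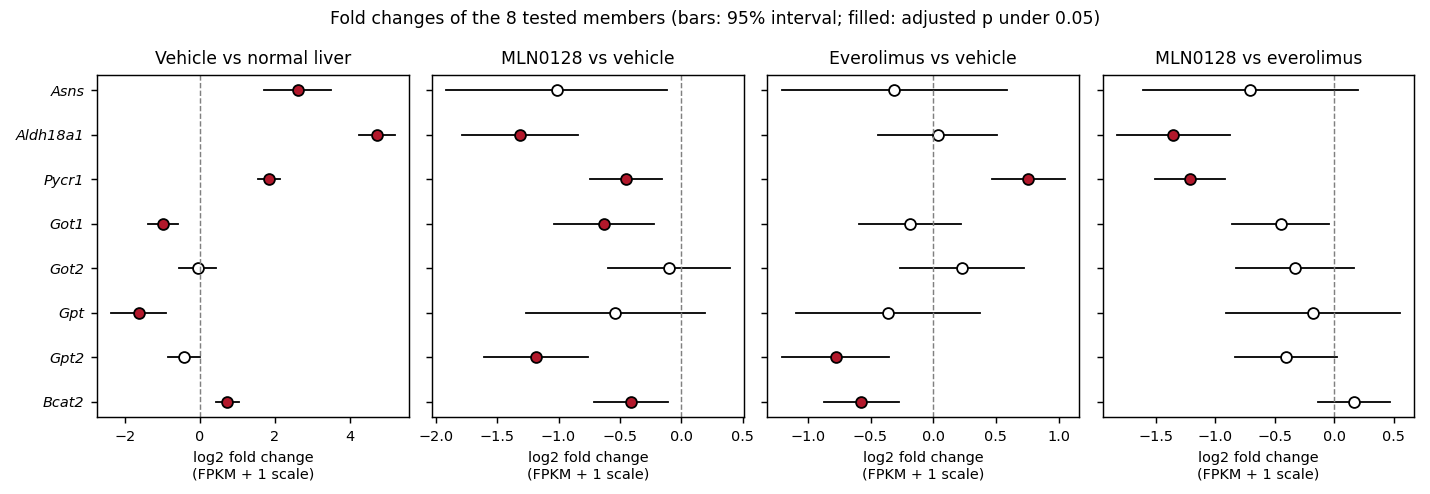
Log2 change on the FPKM + 1 scale (horizontal axes) with its 95% interval for the 8 tested enzyme genes in the 4 comparisons, 1 panel each. Filled points have an adjusted p under 0.05, which holds for 6 genes against normal liver, 5 with MLN0128, 3 with everolimus and 2 between the drugs, and under other scalings *Got1*, *Got2* and *Gpt2* change sign in the first panel, *Got2* in the second and *Gpt* in the last.

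Of the 47 other pathway genes, 4 were higher and 9 lower with MLN0128 and 34 were not called, with a median log2 change of -0.07. Over all tested genes 32.0% were called, 14.9% higher and 17.1% lower. With TPM scaling 9 were higher and 7 lower. Without MLN0128 replicate 2 there were 1 higher and 14 lower, without its replicate 3 there were 9 and 7, without its replicate 1 there were 1 and 7, and without vehicle replicate 2 or 3 there were 1 and 8 or 2 and 7. *Tat* (tyrosine transaminase) fell the most, from 150, 75.4 and 185 FPKM to 14.0, 12.7 and 8.62 FPKM, a log2 change of -3.36. *Bckdha*, a subunit of the branched-chain keto acid dehydrogenase, rose from 9.73, 11.6 and 11.5 FPKM to 33.5, 35.4 and 15.8 FPKM, a log2 change of 1.21 (adjusted p = 0.00556), and its lowest MLN0128 value, in replicate 3, still lay above all 3 vehicle values. *Agxt* at 1.12 and *Aspg* at 1.09 also passed. With MLN0128 replicate 3 as the only library of its group the log2 changes were 0.50, 0.37 and 0.31. Leaving out vehicle replicate 2, MLN0128 replicate 1 or MLN0128 replicate 2 ended the calls of *Agxt* and *Aspg*, as leaving out vehicle replicate 3 did for *Aspg*, with adjusted p from 0.0660 to 0.0907. By list, 1 gene was higher and 3 lower of 8 for asparagine, glutamine and glutamate, 0 and 0 of 6 for proline and ornithine, 2 and 2 of 21 for branched-chain breakdown, 1 and 2 of 7 for other transaminases, and 0 and 2 of 5 for the shuttle.

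Of the 6 ATF4 reference genes, chosen with earlier results known, 4 fell with MLN0128 and none rose. Over all tested genes 17.1% were lower and 14.9% higher. *Atf4* itself went from 148, 168 and 130 FPKM to 33.8, 35.6 and 30.0 FPKM, a log2 change of -2.13. *Chac1*, which degrades glutathione, went from 32.5, 20.8 and 27.9 FPKM to 0.710, 0.287 and 0.460 FPKM (log2 change -4.23), and *Trib3*, a pseudokinase, differed by -3.58 and *Ddit3*, a stress transcription factor, by -1.93. *Psat1* differed by -1.58 with an adjusted p of 0.0535, and *Phgdh* by -0.53 with an adjusted p of 0.408. The SE of *Psat1*, like that of *Asns*, includes normal liver replicate 2, without which its adjusted p was 0.000761. It was also past the threshold without normal liver replicate 3 (adjusted p = 0.0345).

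**Figure D4:**
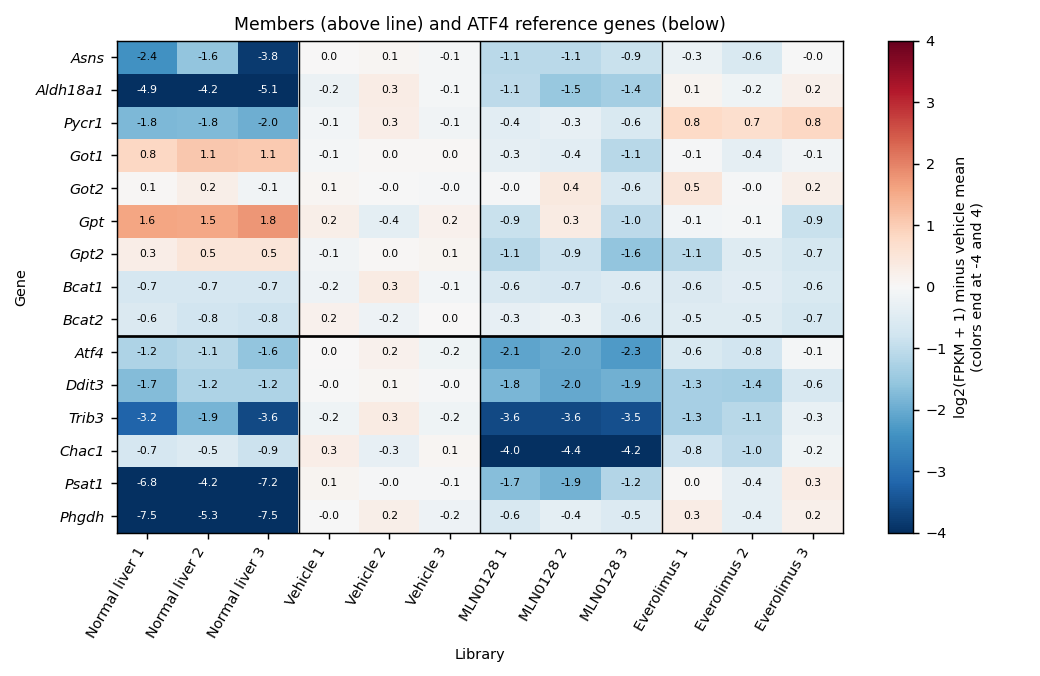
Difference in log2(FPKM + 1) from the vehicle mean for the 9 enzyme genes (above the line) and the 6 ATF4 reference genes (below it), 1 column per library, with colors that end at -4 and 4. All the enzyme genes but *Got2* and *Gpt* are below 0 in all 3 MLN0128 columns, as are the 6 ATF4 reference genes. *Pycr1* is above 0 in all 3 everolimus columns. The normal liver columns depend on the scaling between libraries.

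With everolimus, *Pycr1* rose and *Gpt2* and *Bcat2* fell against the same 3 vehicle tumors that serve the MLN0128 comparison. That is 1 of the 8 genes higher and 2 lower, beside 9.81% of all genes called, 3.77% higher and 6.04% lower. Over all genes, the 1412 called fell to 708 without vehicle replicate 1, 570 without its replicate 3, 536 without everolimus replicate 1 and 855 without its replicate 3. The same 3 genes were the ones whose groups did not overlap, beside 17.7% of all genes apart and higher and 14.8% apart and lower. The median log2 change of the 8 was -0.25, against 0.03 over all genes. *Pycr1* was at 7.05, 6.30 and 7.15 FPKM with everolimus and 3.25, 4.58 and 3.17 FPKM with vehicle, a log2 change of 0.76 (SE 0.134, adjusted p = 0.00595) and a 1.86-fold higher mean. Leaving out any 1 library kept this call, and it had the same sign under each scaling.

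*Gpt2* was at 45.9, 70.2 and 61.2 FPKM with everolimus, below all vehicle tumors, a log2 change of -0.78 (SE 0.195, adjusted p = 0.0295). The call was lost without vehicle replicate 1 (adjusted p = 0.0568), 2 (0.0659) or 3 (0.11), or without everolimus replicate 1 (0.124) or 3 (0.0638). *Bcat2* was at 6.45, 6.35 and 5.52 FPKM, a log2 change of -0.57 (SE 0.138, adjusted p = 0.0249), which was lost without vehicle replicate 1 (adjusted p = 0.0976) or 3 (0.0896), or everolimus replicate 1 (0.0653) or 3 (0.0821). In a fit of the vehicle and everolimus libraries alone its adjusted p was 0.0525. *Bcat1* was at 0.0738, 0.167 and 0.0560 FPKM, which were 13, 47 and 13 recovered reads, below the 3 vehicle tumors. Its mean was 6.27-fold lower, or 9.55-fold lower without everolimus replicate 2 and 4.39-fold lower without vehicle replicate 2. Its adjusted p was 0.0226 by voom on recovered reads and 0.0129 by limma with no filter. The ratio of *Bcat1* to *Bcat2* was 0.0596 with vehicle and 0.0145 with everolimus, with the groups apart (exact permutation p = 0.1, adjusted p = 0.18).

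*Asns* (83.1, 65.5 and 99.2 FPKM) and *Aldh18a1* (41.1, 33.4 and 43.7 FPKM) overlapped between everolimus and vehicle. Their log2 changes were -0.31 (95% interval -1.21 to 0.59, adjusted p = 0.682) and 0.04 (95% interval -0.44 to 0.51, adjusted p = 0.935). *Got1* (58.0, 46.8 and 55.1 FPKM), *Got2* (154, 108 and 131 FPKM) and *Gpt* (37.8, 37.9 and 21.4 FPKM) overlapped too, with log2 changes of -0.18, 0.23 and -0.36 and adjusted p from 0.534 to 0.574. *Got1* over *Got2* nonetheless lay lower in every everolimus tumor than in every vehicle tumor, at 0.409 against 0.546 (exact permutation p = 0.1, adjusted p = 0.18). *Gpt* over *Gpt2* was 0.538 and overlapped with vehicle (exact permutation p = 0.4, adjusted p = 0.514).

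**Figure D5:**
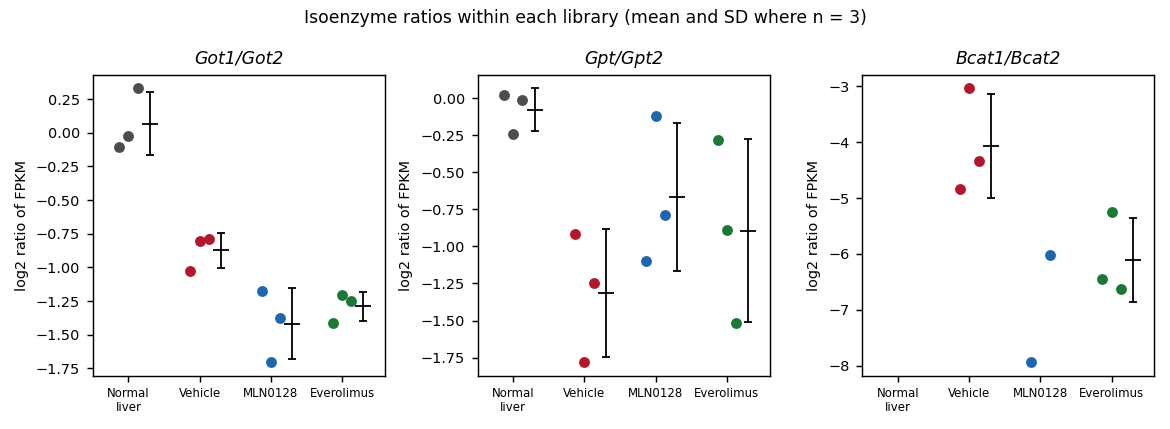
Log2 ratio of cytosolic to mitochondrial FPKM within each library (vertical axes) for the 3 transaminase pairs by group, with the mean and SD where all 3 libraries have a value. *Got1*/*Got2* is near 0 in normal liver, at -1.03, -0.80 and -0.79 with vehicle, and below -1 in all 6 drug-treated tumors. *Bcat1*/*Bcat2* has no point for the 3 normal livers and MLN0128 replicate 2, where *Bcat1* is at 0.

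With everolimus, 2 of the 47 other pathway genes were called, *Tat* (log2 change -2.07, adjusted p = 0.0191) and *Mdh2*, the mitochondrial malate dehydrogenase (-0.49, adjusted p = 0.0371), both lower. Over all tested genes 9.81% were called, 3.77% higher and 6.04% lower. None of the 8 genes of asparagine, glutamine and glutamate, the 6 of proline and ornithine or the 21 of branched-chain breakdown passed. *Tat* was lost without vehicle replicate 1 (adjusted p = 0.0700) or 3 (0.0871) or everolimus replicate 1 (0.0717), and *Mdh2* without normal liver replicate 1 or any 1 vehicle or everolimus library, with adjusted p from 0.0563 to 0.135. Of the ATF4 reference genes 1 of 6 passed, lower, beside 6.04% of all tested genes lower. It was *Ddit3*, at 4.79, 4.67 and 8.39 FPKM beside 13.3, 14.3 and 13.1 FPKM with vehicle (log2 change -1.11, adjusted p = 0.00585). *Atf4* was at 96.9, 86.3 and 141 FPKM and overlapped with vehicle (log2 change -0.48, adjusted p = 0.127), though without everolimus replicate 3 its adjusted p was 0.0413.

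The direct comparison of the drugs, at the same dose and time, separated the proline enzymes. *Aldh18a1* and *Pycr1* were lower with MLN0128 than with everolimus, 2 of the 8 genes, with 0 higher, beside 9.53% of all genes called, 5.54% lower and 3.99% higher. The 2 stayed called with TPM scaling, plain totals and quantile normalization, while all genes turned from 575 higher and 797 lower to 1256 and 196, 1188 and 402, and 639 and 552. The 1372 genes called fell to 182 without everolimus replicate 3, 212 without MLN0128 replicate 1 and 678 without everolimus replicate 1. The median log2 change of the 8 was -0.43, against -0.03 over all genes, and 3 of the 8 did not overlap, all lower, beside 15.2% of all genes apart and lower and 12.5% apart and higher. *Aldh18a1* at 17.8, 12.7 and 14.1 FPKM stood against 41.1, 33.4 and 43.7 FPKM, a log2 change of -1.35 (SE 0.217, adjusted p = 0.00766) and a 2.65-fold lower mean. This call was lost when 0.1 or 0.01 in place of 1 was added to the FPKM (adjusted p = 0.0581 and 0.104). *Pycr1* at 2.45, 2.69 and 2.04 FPKM stood against 7.05, 6.30 and 7.15 FPKM, a log2 change of -1.21 (SE 0.134, adjusted p = 0.00146) and a 2.86-fold lower mean. Fitted on the MLN0128 and everolimus libraries alone, each had an adjusted p of 0.0540. With MLN0128 replicate 3 as the only library of its group, which leaves out the 2 libraries with *Xist* RNA, the log2 changes were -1.41 for *Aldh18a1* and -1.36 for *Pycr1*. The lone library is assumed there to vary like the other groups, and the adjusted p were 0.0622 and 0.0176.

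*Asns* did not overlap between the drugs (47.5 to 54.0 FPKM against 65.5 to 99.2 FPKM), with a log2 change of -0.70 (95% interval -1.60 to 0.19, adjusted p = 0.3). The other 5 tested genes overlapped. Their log2 changes were -0.45 for *Got1* (95% interval -0.86 to -0.04, adjusted p = 0.147), -0.33 for *Got2* (-0.82 to 0.17), -0.41 for *Gpt2* (-0.83 to 0.02) and 0.17 for *Bcat2* (-0.13 to 0.47), and -0.18 for *Gpt* (-0.91 to 0.55), which turned to 0.065 with TPM scaling. *Bcat1* overlapped at up to 20 reads against 13 to 47. *Got1* over *Got2* and *Gpt* over *Gpt2* overlapped as well, each with an exact permutation p of 0.7. Of the 47 other pathway genes 3 were lower and none higher, beside 5.54% of all tested genes lower and 3.99% higher. *Nars*, the asparaginyl-tRNA synthetase, was at 62.9 to 75.4 FPKM with MLN0128 and 121 to 181 FPKM with everolimus, and leaving out any 1 library kept its call, though in a fit of the 2 groups alone its adjusted p was 0.0739. *Asrgl1*, an asparaginase, at -0.52 and *Mdh2* at -0.49 both lost their calls without normal liver replicate 1, vehicle replicate 1 or 3, MLN0128 replicate 1 or 3, or everolimus replicate 1 or 3, and *Mdh2* also without vehicle replicate 2, with adjusted p from 0.0510 to 0.147. The count was 3 higher and 1 lower without MLN0128 replicate 3, and 0 and 5 without MLN0128 replicate 2 or everolimus replicate 2. With TPM scaling 4 were higher and 1 lower. Of the ATF4 reference genes 4 of 6 were lower with MLN0128, beside 5.54% of all tested genes lower. *Chac1* was at -3.55, *Trib3* at -2.67 and *Atf4* at -1.65 on the log2 scale. The fourth, *Ddit3* at -0.82, was not called without MLN0128 replicate 1 or 2 or everolimus replicate 3 (adjusted p from 0.0623 to 0.0906) or with TPM (adjusted p = 0.0643).

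Ordered by mean FPKM, a per-length level, *Gpt2* at 135, *Gpt* at 128, *Got1* at 121 and *Got2* at 116 FPKM led in normal liver with overlapping libraries, followed by *Asns* at 19.1 and *Bcat2* at 5.38 FPKM, and *Aldh18a1*, *Pycr1* and *Bcat1* were at 1.07 FPKM or less in every normal liver. In vehicle-treated tumors the order was *Got2* at 111, *Asns* at 101 and *Gpt2* at 101, which overlapped, then *Got1* at 60.4, *Gpt* at 41.3 and *Aldh18a1* at 38.6, of which the last 2 overlapped, and then *Bcat2* at 9.63, *Pycr1* at 3.67 and *Bcat1* at 0.620 FPKM. *Asns* stood at 49.7 FPKM with MLN0128, between *Gpt2* at 44.6 and *Got2* at 108 FPKM, and at 82.6 FPKM with everolimus, between *Gpt2* at 59.1 and *Got2* at 131 FPKM, overlapping with *Gpt2* and apart from *Got2* under both drugs.

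Across the 9 tumor libraries, the genes whose log2(FPKM + 1) was most like that of *Asns* were *Ccnyl1* (Pearson r 0.990, Spearman rho 0.912), *Tars*, the threonyl-tRNA synthetase (0.988, 0.946), and *Psmc4*, a proteasome subunit (0.988, 0.979). *Ldha*, a lactate dehydrogenase subunit, was the most like *Aldh18a1* (r 0.987, rho 0.933), *Ak4* like *Pycr1* (0.972, 0.983) and *Reep6* like *Got1* (0.954, 0.770). For *Got2* it was *Aasdhppt* (0.97, 0.941), for *Gpt* it was *St3gal3* (0.968, 0.983), for *Gpt2* it was *Tmem106b* (0.980, 0.983) and for *Bcat2* it was *Galk2* (0.963, 0.967). These values describe 9 libraries that share 3 treatment groups and come from the highest of 14393 genes, so no test is attached to them.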

How the data were processed

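Total RNA of 12 mice was made into libraries and sequenced by Novogene. The authors counted reads per Ensembl gene, converted these to Entrez identifiers with symbols from org.Mm.eg.db, and deposited linear FPKM to 3 significant digits. The submitters' processing notes name FastQC 0.11.7 and GRCm38. The aligner is not given in the sources used here.

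The deposited FPKM are not counts, so log2(FPKM + 1) was fitted with limma 3.58.1 (trend, R 4.3.3) in 1 model of 4 group means with 8 residual degrees of freedom. Of 17007 rows, 4 with a repeated symbol were left out, and 22 symbols had been turned into dates. The 14393 genes that reached 0.5 FPKM in 3 or more libraries were tested, and p-values were adjusted over all of them by the Benjamini-Hochberg method. The labels give 3 mice per group, and which mice shared a litter or batch is not stated, so p-values measure the spread between these libraries. Exact two-sided permutation tests were used for the isoenzyme ratios, on 9 of which all libraries had a value.

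FPKM times the exon length of GENCODE M21 on GRCm38 fell within 0.1 read of a whole number for 98.2% to 98.9% of the values under 20 reads in each library, which gave the recovered reads. Larger read numbers are approximate, since the values carry 3 digits.

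The members, the 5 pathway lists, the 6 ATF4 reference genes and the marker lists were chosen with earlier results of these data known. Beside the 9 members, the text names at most the 3 called list genes of largest change in each direction per comparison, the ATF4 reference genes, the targeted *Rictor* and *Tsc2*, and the genes most like each member; *Bckdk*, *Nars*, *Mdh2*, *Asrgl1* and single marker genes were named after their values were seen. Marker sums besides those given with the results were, for normal liver, vehicle, MLN0128 and everolimus, 23.3 to 31.7, 12.2 to 18.5, 9.77 to 13.1 and 10.5 to 17.7 FPKM for endothelial, 57.0 to 81.4, 13.2 to 26.9, 16.5 to 29.2 and 25.2 to 32.5 FPKM for stellate, and 1.42 to 2.30, 0.462 to 0.641, 0.618 to 2.10 and 0.426 to 1.10 FPKM for lymphocyte markers, the last over the 5 of 6 that the table holds. With everolimus they were 2782 to 7546 FPKM for hepatocyte, 17.2 to 61.8 FPKM for cholangiocyte and 21.8 to 69.3 FPKM for macrophage markers. A withheld gene, and the count of the proline and ornithine list against normal liver that rests on it, are not reported here. Promoter windows came from RefSeq on GRCm38.p6. The tests were tried on simulated data. Alternatives covered the pseudocount, filter, scaling, prior trend, libraries in the fit, replicate block, threshold and leaving out libraries, and *Bcat1* by voom with at least 10 reads in at least 3 libraries was added after seeing the data. Python 3.11.15, pandas 2.3.3 and matplotlib 3.10.9 served for tables and figures.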

Additional observations from a re-analysis of the deposited data

How the results depend on the processing

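Each of the 32 member results was refitted under 27 alternatives. Of these 864 values, 776 kept direction and side of the threshold, 60 lost it, 9 gained it and 19 changed sign. Of the 16 called results, 1 changed sign anywhere, *Got1* against normal liver. At 3 libraries per group the limits are the spread within groups and, for *Bcat1*, *Aldh18a1* and *Pycr1* in normal liver, at most 48 reads per library. The cause of the changes below was not tested.

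Sign changes against normal liver came with TPM scaling (*Got1* 0.20, *Got2* 1.14, *Gpt2* 0.77), quantile normalization (*Got2* 0.80, *Gpt2* 0.47), plain library totals (*Got2* 0.87, *Gpt2* 0.51) and, over libraries left out in turn, for *Got2* (-0.15 to 0.037). For MLN0128 against vehicle, *Got2* turned to 0.14 with TPM, 0.28 with quantile normalization and 0.049 with plain totals, and ran from -0.34 to 0.17 over libraries left out. For everolimus against vehicle, *Aldh18a1* ran from -0.075 to 0.19 over libraries left out. Between the drugs, *Gpt* was 0.065 with TPM and -0.61 to 0.072 over libraries left out, and *Bcat2* was -0.055 with MLN0128 replicate 3 alone of its group. The *Bcat1* to *Bcat2* difference of everolimus from vehicle, -2.04 on the log2 scale, was 0.031 with a pseudocount of 1.

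Against normal liver the number of members called was 4 with treat and 5 to 7 otherwise, but 4 higher and 2 lower became 6 and 0 with TPM or plain totals and 5 and 0 with quantile normalization. For MLN0128 against vehicle, 5 became 3 with a pseudocount of 0.01, with quantile normalization, in a fit of the 2 groups alone, with a fold change above 1.5 required and with MLN0128 replicate 3 alone, 2 with TPM, and 0 with treat, and ran from 3 to 6 over libraries left out. For everolimus against vehicle, 3 became 0 with treat and 1 to 3 over libraries left out. Between the drugs, 2 became 1 with a pseudocount of 0.1 or 0.01 and 0 with treat or in a fit of the 2 groups alone.

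Replicate numbers did not pair the samples: deviations of same-numbered libraries correlated from -0.29 to 0.15 over 18 pairs. With the number as a block, the members called were 6, 5, 3 and 2 as without it, *Asns* with MLN0128 kept its value of -1.01 (limma, adjusted p = 0.102), and genes called overall went from 9926, 4605, 1412 and 1372 to 9691, 4107, 977 and 814. Over all genes, treat called 4707, 306, 87 and 6, requiring a fold change above 1.5 left 763 between the drugs, the fit of 2 groups alone 902 for everolimus against vehicle and 6 between the drugs, and MLN0128 replicate 3 alone 1759 and 166 for its 2 comparisons. With libraries left out in turn, genes called ran from 9212 to 10058, 3027 to 4786, 536 to 1669 and 182 to 1596.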
